A study of Mus musculus with 8 samples.

Results

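The 10 glycolytic enzymes described here are hexokinase 2 (Hk2), glucose-6-phosphate isomerase (Gpi1), the platelet-type phosphofructokinase (Pfkp), aldolase A (Aldoa), triosephosphate isomerase (Tpi1), glyceraldehyde-3-phosphate dehydrogenase (Gapdh), phosphoglycerate kinase 1 (Pgk1), phosphoglycerate mutase 1 (Pgam1), enolase 1 (Eno1) and lactate dehydrogenase A (Ldha). They were taken by symbol, a rule that uses no measured value, and are 10 of the 22558 gene symbols in the deposited tables, and each had 1 row in every library. The libraries came from injured mouse retina: 4 from infiltrating macrophages, numbered 5 to 8, and 4 from microglia, numbered 1 to 4, the resident macrophages of neural tissue. All 8 shared 1 genotype, Msi1-CreERT2/+; R26R-DTA/+, a mixed C57BL/6; 129 background, an age of about 5 months, and sampling on day 7 after injury. Msi1-CreERT2 is a tamoxifen-dependent Cre driven from the Musashi 1 gene, and R26R-DTA is a Cre-dependent diphtheria toxin A chain at the Rosa26 locus, so both populations came from retinas carrying the same cell-killing system. No uninjured library was analysed here. Titles of macrophage libraries begin with GFP and those of microglial libraries with cont. The sources used here do not state what GFP marks, how the cells were isolated, or whether libraries came from separate animals or pools. The p-values therefore measure only library-to-library spread, part of which may be technical.

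Glycolysis splits glucose into pyruvate in the cytosol and yields ATP and NADH without oxygen. Hexokinase traps glucose in the cell as glucose-6-phosphate, phosphofructokinase commits it to the pathway, aldolase cuts the sugar into triose phosphates, and the later enzymes carry the trioses to pyruvate. Lactate dehydrogenase then converts pyruvate to lactate and renews NAD+. Its A subunit predominates in muscle and its B subunit in heart. Activated macrophages are known for raised glycolysis, and the retina for making lactate even when oxygen is plentiful.

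None of the 9 enzymes that could be tested passed the test between the populations, and a difference that did pass lay in an isozyme at the lactate dehydrogenase step. Ldhb, the B subunit of lactate dehydrogenase, fell to 34.8 ± 14.5 FPKM in macrophages, against 275 ± 35.4 FPKM in microglia (n = 4 each, ± SD), while Ldha averaged 318 ± 211 FPKM in macrophages and 309 ± 42.5 FPKM in microglia. FPKM are fragments per kilobase of transcript scaled to the number of fragments sequenced, a level corrected for transcript length and depth. Of the 9 enzymes tested, 0 were called higher and 0 lower at an adjusted p below 0.05 (limma on log2(FPKM + 1), Benjamini-Hochberg adjustment over 9352 genes). Over all tested genes 2.34% were called, 1.65% higher and 0.695% lower in macrophages. At an unadjusted p below 0.05 there was 1 enzyme, Aldoa, of 9, beside 15% of all tested genes. Fold changes, given throughout as the log2(FPKM + 1) mean of macrophages less that of microglia, with standard errors, were negative for 7 of the 9 enzymes and positive for Gpi1 and Eno1. Their median was -0.56, where the median of all tested genes was 0.37 and 32.9% of genes were below 0. That comparison is not matched for level, since the tested genes include many of low FPKM and most of these enzymes are abundant.

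FPKM sums ranged from 207154 to 512101 in macrophage libraries and from 296110 to 392952 in microglial libraries, and depth, estimated from the FPKM of single fragments, from 22.1 to 24.2 M fragments in macrophages and from 11.6 to 21.1 M in microglia. Genes at 1 FPKM or more numbered 8814 to 10282 in macrophage libraries and 5992 to 9505 in microglial libraries, the fewest in microglia 2. Both labels matched their markers: 5 of 10 microglial genes were called, each lower in macrophages, and 9 of 10 tested genes of monocyte-derived cells were called, each higher. P2ry12, a microglial purine receptor, averaged 15.4 ± 10.5 FPKM in macrophages and 114 ± 28.2 FPKM in microglia, and Cd74, the MHC class II invariant chain, 5288 ± 2218 FPKM in macrophages and 62.7 ± 51.8 FPKM in microglia. Summed Y-linked expression was at most 1.97 FPKM in macrophage libraries, against 25.8, 11.7, 16.5 and 0.0533 FPKM in microglia 1 to 4. Xist, expressed from the inactive X, was between 4.84 and 7.94 FPKM in macrophages and reached 4.78 FPKM in microglia 4 alone among the microglia. Sex-linked expression thus differed between the populations except in microglia 4, a single library, and its part in the results below cannot be told apart from population. Red-cell RNA was uneven too, with haemoglobin sums of 0.581 to 23.7 FPKM in macrophages and of 160.1, 165, 2435 and 0.683 FPKM in microglia 1 to 4.

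**Figure D1:**
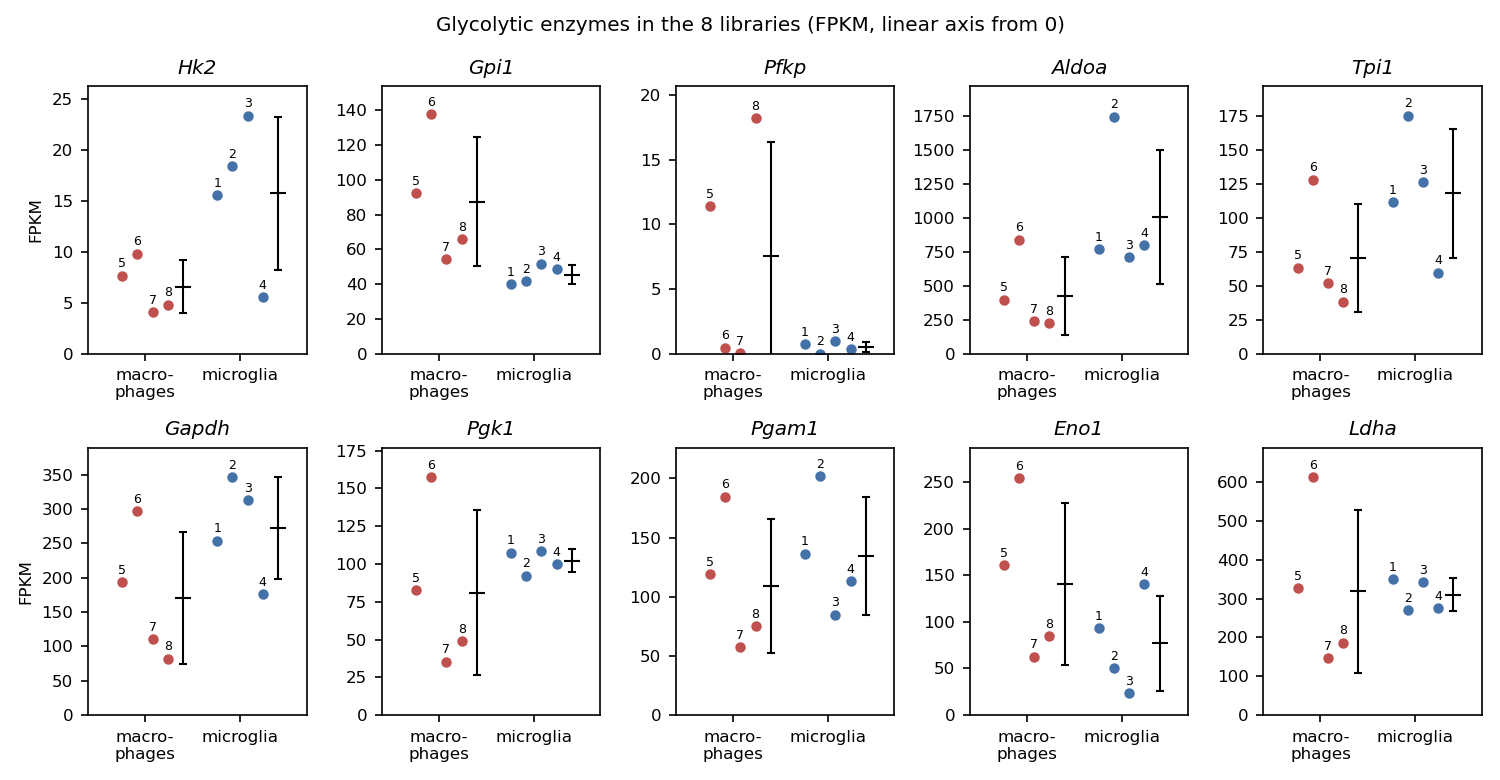
FPKM of each of the 10 enzymes (vertical axes, linear from 0) in the macrophage libraries 5 to 8 (red) and the microglial libraries 1 to 4 (blue). Bars give the mean ± SD of 4 libraries, with the bar for Pfkp in macrophages cut at 0. Macrophage 6 is the highest macrophage library for 9 of the 10 enzymes, and Gpi1 is the one enzyme whose populations do not overlap.

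In macrophages the enzymes ranked by mean FPKM, a per-length level, as Aldoa (424 ± 287), Ldha (318 ± 211), Gapdh (171 ± 96.4), Eno1 (141 ± 86.7), Pgam1 (109 ± 56.5), Gpi1 (87.5 ± 37.0), Pgk1 (81.1 ± 54.7), Tpi1 (70.4 ± 39.9), Pfkp (7.52 ± 8.85) and Hk2 (6.57 ± 2.64; SD, n = 4). Neighbours in that order differed by less than the larger SD, except Tpi1 and Pfkp. These SDs are between libraries and do not measure the order within a library. In each macrophage library Aldoa lay above Ldha, Ldha above Gapdh, Eno1 above Pgam1, Pgam1 above Gpi1 and Tpi1 above Pfkp. The remaining neighbours did not keep their order. In microglia the order was Aldoa (1004 ± 493), Ldha (309 ± 42.5), Gapdh (273 ± 74.6), Pgam1 (134 ± 49.9), Tpi1 (118 ± 47.7), Pgk1 (102 ± 7.63), Eno1 (76.9 ± 51.4), Gpi1 (45.5 ± 5.56), Hk2 (15.7 ± 7.51) and Pfkp (0.503 ± 0.419; SD, n = 4). There, neighbours from Ldha to Gapdh and from Pgam1 through Gpi1 differed by less than the larger SD, and the others by more. Over both populations Aldoa was at rank 51 and Ldha at rank 125 of the 9352 tested genes, while Hk2, the lowest enzyme tested, was at rank 3230. The place of Eno1 in these orders rests on its own row. Summed with both rows of Gm5506, a near-identical copy described below, Eno1 averaged 714 ± 455 FPKM in macrophages. That sum lay above Aldoa in every macrophage library. In microglia it averaged 575 ± 183 FPKM, below Aldoa.

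At the first steps of the pathway the fold change was negative for hexokinase 2 and positive for glucose-6-phosphate isomerase, and neither passed the test. Hk2 (chr6:82675021-82724448, minus strand, mm9), which phosphorylates glucose at the mitochondrial surface, had 7.63, 9.80, 4.06 and 4.81 FPKM in macrophages 5 to 8, against 15.6, 18.4, 23.4 and 5.54 FPKM in microglia 1 to 4. Microglia 1 to 3 lay above every macrophage library, while microglia 4 lay among them. The fold change was -1.06 ± 0.64 (95% interval -2.39 to 0.27, adjusted p = 0.455). Gpi1 (chr7:34986346-35015324, minus strand), which turns glucose-6-phosphate into fructose-6-phosphate, had 92.1, 138, 54.2 and 66.0 FPKM in macrophages, against 39.9, 41.8, 51.8 and 48.4 FPKM in microglia. Every macrophage library lay above every microglial one, the lowest macrophage library only just so. Such separation, in either direction, held for 1 of the 9 tested enzymes and for 7.63% of all tested genes. The Gpi1 fold change was 0.85 ± 0.49 (95% interval -0.17 to 1.87, adjusted p = 0.436), and an exact two-sided permutation test over the 8 libraries alone gave p = 0.0286, the smallest that 70 arrangements allow.

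Phosphofructokinase was divided among isozymes that differed from library to library. Pfkp (chr13:6579120-6647970, minus strand) had 11.4, 0.465, 0.0353 and 18.2 FPKM in macrophages, against 0.711, 9.09e-08, 0.956 and 0.345 FPKM in microglia. Macrophages 5 and 8 were high and the other 6 libraries were below 1 FPKM, so Pfkp did not reach the minimum of 1 FPKM in 4 libraries and was not tested. Tested without that minimum, it differed by 1.58 on the log2 scale with an adjusted p of 0.612. Pfkl, the liver-type isozyme, carried the step in most libraries, with 17.5, 20.6, 11.4 and 16.0 FPKM in macrophages and 16.3, 5.53, 15.3 and 38.4 FPKM in microglia. Its populations overlapped fully, with a fold change of 0.05 ± 0.62 (adjusted p = 0.981) whose sign changed with scaling.

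By the row of each symbol, aldolase A was the most abundant of the 10 enzymes, and it was the one nearest to a call. Aldoa (chr7:133938748-133943961, minus strand), which splits fructose bisphosphate, had 397, 838, 239 and 221 FPKM in macrophages, against 769.5, 1742, 708 and 799 FPKM in microglia. Macrophages 5, 7 and 8 lay below every microglial library, macrophage 6 lay within the microglial range, and microglia 2 stood far above the rest. The fold change was -1.35 ± 0.49 (95% interval -2.37 to -0.34, adjusted p = 0.182). Aldoa passed the threshold when libraries were scaled to equal sums (-1.19, adjusted p = 0.0497), by the upper quartile (-1.46, adjusted p = 0.0254) or by quantile normalization (-1.14, adjusted p = 0.0487), and without macrophage 6 (-1.75, adjusted p = 0.0288), while its adjusted p over all alternatives ran from 0.0254 to 1. Aldoart1 and Aldoart2, copies 94.2% and 91.9% identical to the Aldoa coding sequence, had means of 38.4 and 20.2 FPKM in macrophages and 80.2 and 46.6 FPKM in microglia. Adding their levels left the fold change at -1.34 (adjusted p = 0.191). Other aldolases were low, with Aldoc at 0.223 to 5.15 FPKM in macrophages and 0 to 5.15 FPKM in microglia.

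The middle enzymes, which interconvert trioses and make the first ATP, had negative fold changes and overlapping populations. Tpi1 (chr6:124760610-124764314, minus strand), which equilibrates the triose phosphates, had 63.2, 128, 51.8 and 38.3 FPKM in macrophages, against 112, 175, 126 and 59.5 FPKM in microglia, a fold change of -0.79 ± 0.52 (adjusted p = 0.495). Gapdh (chr6:125111870-125115601, minus strand), which oxidizes glyceraldehyde-3-phosphate and reduces NAD+, had 194, 297, 111 and 81.8 FPKM in macrophages, against 254, 346, 313 and 176 FPKM in microglia, a fold change of -0.80 ± 0.49 (95% interval -1.81 to 0.21, adjusted p = 0.455). For both genes macrophages 7 and 8 lay below every microglial library, and macrophage 6 lay within the microglial range. Pgk1 (chrX:103382463-103399038, plus strand), the first enzyme of the pathway to yield ATP, had 82.6, 157, 35.3 and 48.9 FPKM in macrophages, against 108, 92.3, 109 and 99.9 FPKM in microglia. The 4 microglial values were close together while macrophage values lay on both sides of them, and the fold change was -0.56 ± 0.51 (adjusted p = 0.659). Pgam1 (chr19:41986361-41993155, plus strand), which moves the phosphate between carbons of phosphoglycerate, had 119, 185, 57.6 and 75.4 FPKM in macrophages, against 136, 202, 84.7 and 113 FPKM in microglia, a fold change of -0.36 ± 0.50 (adjusted p = 0.787). The testis isozyme Pgk2 had 1.30 ± 0.991 FPKM in macrophages and 0.406 ± 0.353 FPKM in microglia and was not tested.

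Enolase 1 could not be read from a single row. The Eno1 row (chr4:149611306-149622982, plus strand), for the enzyme that makes phosphoenolpyruvate, had 161, 254, 62.6 and 85.0 FPKM in macrophages, against 93.4, 50.3, 23.3 and 141 FPKM in microglia. Microglia 2 and 3 lay below every macrophage library and microglia 1 and 4 among them, and the fold change was 0.94 ± 0.58 (95% interval -0.26 to 2.14, adjusted p = 0.460). The tables also hold 2 rows for Gm5506, a copy on chromosome 18 whose coding sequence is 99.4% identical to that of Eno1 over 1305 bases, with 8 mismatches. One of these rows lies within the Eno1 locus itself (chr4:149611433-149622982) and had 189, 373, 96.9 and 113 FPKM in macrophages, against 171, 325, 135 and 170.2 FPKM in microglia. The other, on chromosome 18, had 407, 713, 178 and 226 FPKM in macrophages, against 297, 370.0, 166 and 357 FPKM in microglia. The Eno1 row thus held between 18.6% and 21.3% of the 3 rows in macrophages, against 16.6%, 6.76%, 7.18% and 21.1% in microglia 1 to 4. Summed with the row at its own locus, Eno1 differed by 0.13 ± 0.50 (adjusted p = 0.937), and with both rows by 0.17 ± 0.49 (adjusted p = 0.909). Over all alternatives the adjusted p of Eno1 ran from 0.259 to 1, and with a term for Y-linked expression its fold change turned to -0.02. Both summed differences were smaller than their standard errors. Among the tissue-restricted enolases, Eno3 of muscle had 7.61, 29.2, 0 and 11.4 FPKM in macrophages and 5.97 FPKM in microglia 1, with the other microglia listed at 0 (2.21 ± 0.88, adjusted p = 0.234). Eno3 passed without macrophage 7 (3.18, adjusted p = 0.0480, the lowest of alternatives that reached 1). Eno2 of neurons had 0.0268, 3.64, 0.0410 and 0.0645 FPKM in macrophages and 1.12, 0.0837, 6.25 and 1.996 FPKM in microglia (-0.81 ± 0.60, adjusted p = 0.561).

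**Figure D2:**
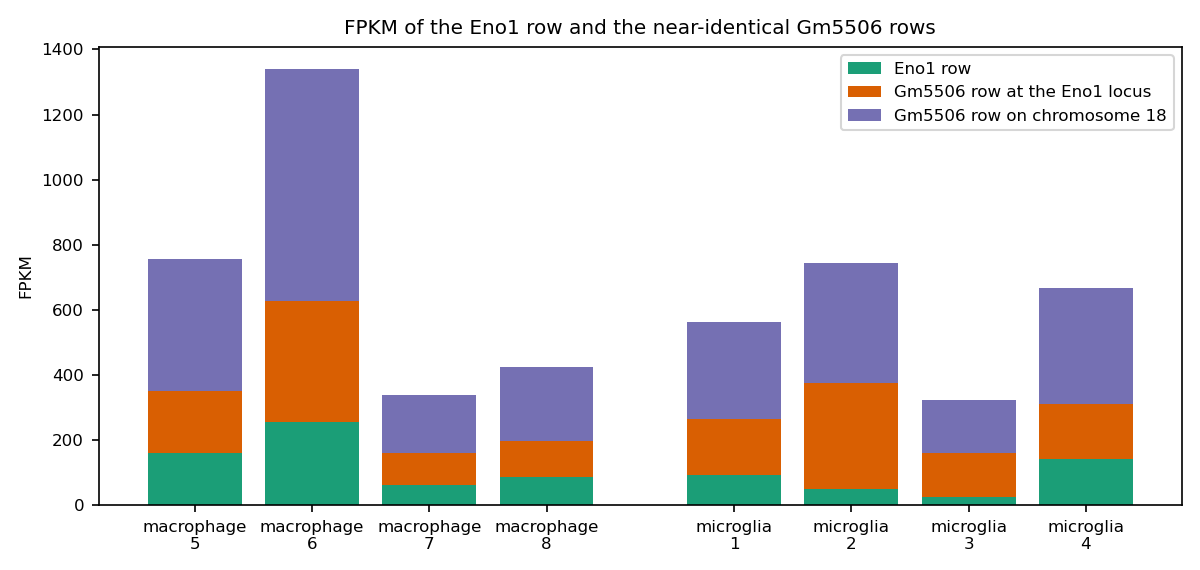
FPKM (vertical axis) of the Eno1 row and the 2 Gm5506 rows, stacked for each macrophage and microglial library. The chromosome 18 row is the largest of the 3 in each of the 8 libraries, and the Eno1 row is lowest in microglia 2 and 3, at 50.3 and 23.3 FPKM.

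Pyruvate kinase, listed under the older symbol Pkm2, was not among the 10 enzymes but completes the pathway to pyruvate. It had 427, 546, 172 and 211 FPKM in macrophages, against 414, 294, 204 and 533 FPKM in microglia, with full overlap (-0.16 ± 0.49, adjusted p = 0.918).

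At the lactate dehydrogenase step 1 isozyme, Ldhb, was called, and Ldha was not. Ldha (chr7:54101174-54110997, plus strand) had 327, 613, 147 and 186 FPKM in macrophages, against 349, 270.3, 343 and 275 FPKM in microglia. Macrophages 7 and 8 were below all microglia, macrophage 6 was above all of them, and macrophage 5 was among them. The Ldha fold change was -0.17 ± 0.48 (95% interval -1.17 to 0.82, adjusted p = 0.905), and it turned positive with quantile normalization (0.10) and without macrophage 7 (0.12) or 8 (0.01). Ldhb (chr6:142438769-142456463, minus strand) had 20.9, 49.6, 44.9 and 23.9 FPKM in macrophages, against 253, 244, 323 and 281 FPKM in microglia. All 4 macrophage libraries lay far below all 4 microglial ones. The Ldhb fold change was -3.03 ± 0.48 (95% interval -4.02 to -2.04, adjusted p = 0.000500), and it was the 1 isozyme called among 8 tested, with 0 called higher. In 18 alternatives the fold change stayed between -3.29 and -2.83, and the adjusted p between 0.000243 and 0.126, the highest value arising with a term for Y-linked expression (-2.91). Microglia 4, which lay near the macrophages in Y-linked, Xist and haemoglobin levels, had 281 FPKM of Ldhb, within the range of the other microglia. It is a single library without a replicate of its kind, and what sets its Ldhb level was not tested.

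As a share of Ldha and Ldhb together, which does not depend on how libraries are scaled, Ldha took 94.0%, 92.5%, 76.6% and 88.6% in macrophages, against 58.0%, 52.5%, 51.5% and 49.4% in microglia. The lowest macrophage share, in macrophage 7, lay above the highest microglial share. Mean shares (n = 4 each, ± SD) were 87.9% ± 7.87 in macrophages and 52.9% ± 3.68 in microglia, a difference of 35.1 percentage points. An exact two-sided permutation test gave p = 0.0286, the smallest possible with 4 libraries against 4. Benjamini-Hochberg adjustment over the 6 steps examined gave 0.171, so the share did not pass after adjustment. With only 1 of 6 steps at that smallest p, no step could fall below 0.05, however large its difference. The adjusted value therefore decides nothing about the share. Leaving out each library in turn gave differences of 33.0 to 38.8 points. Setting the macrophages against microglia 4 alone, a single library and a comparison added after the data were seen, gave 38.5 points. The ratio of Ldhb to Ldha was 0.0639, 0.0810, 0.305 and 0.129 in macrophages, against 0.723, 0.904, 0.942 and 1.02 in microglia.

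**Figure D3:**
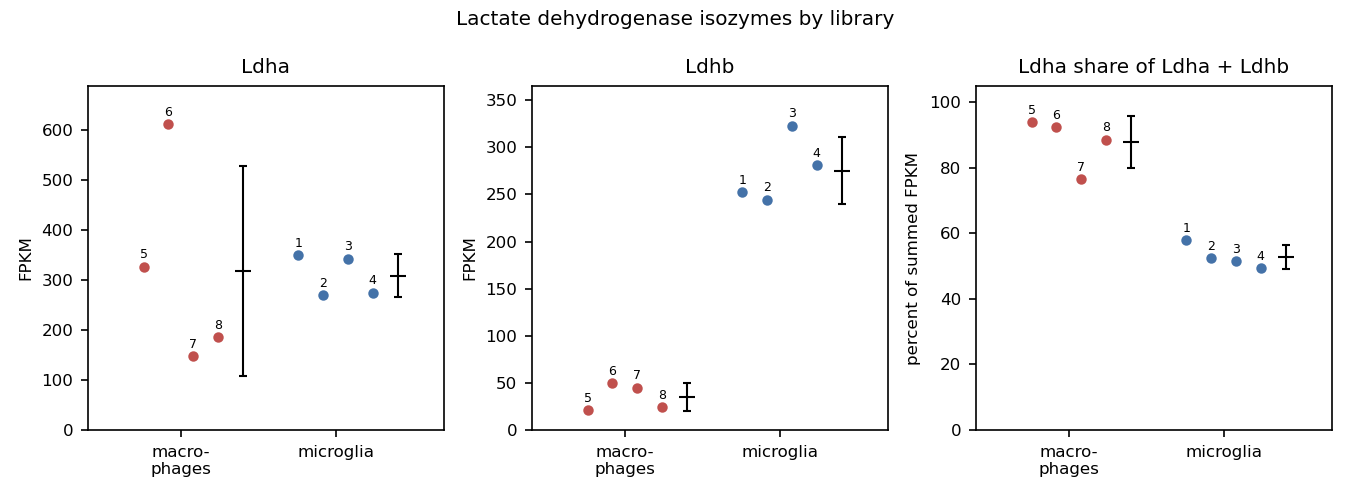
FPKM of Ldha (left) and Ldhb (middle), and Ldha as a percent of their summed FPKM (right), in macrophage libraries 5 to 8 (red) and microglial libraries 1 to 4 (blue), with the mean ± SD of 4 libraries. Ldha overlaps, Ldhb lies between 20.9 and 49.6 FPKM in macrophages and between 244 and 323 FPKM in microglia, and the share of Ldha does not overlap.

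Markers of other cells were read beside Ldhb, since isolated cells can carry RNA of their neighbours, and fewer cells of a type and less RNA per cell cannot be told apart in bulk libraries. Of 9 tested rod and cone genes limma called 0, with 4 at an unadjusted p below 0.05, and the list's summed level was 54.4 to 174 FPKM in macrophages and 88.2 to 492 FPKM in microglia. The most abundant of them, Gnb1, a transducin beta subunit also made elsewhere, had 53.3 ± 32.6 FPKM in macrophages and 47.0 ± 5.34 FPKM in microglia. Gnb1 did not stand for its list, in which 7 of the 9 tested genes had negative fold changes, with a median of -1.23. Of 3 tested genes of retinal neurons 0 were called and 1 had an unadjusted p below 0.05, with sums of 7.19 to 9.98 FPKM in macrophages and 12.5 to 34.1 FPKM in microglia, and Nefl, a neurofilament chain, was listed at 0 in all 8 libraries. Rbpms, of retinal ganglion cells, had 2.05 ± 2.96 FPKM in macrophages and 9.43 ± 5.70 FPKM in microglia (-2.12 ± 0.76, adjusted p = 0.171). Sums over the Müller glia list were 7114 to 15105 FPKM in macrophages and 2025 to 8473 FPKM in microglia. Nearly all of each sum was Apoe, apolipoprotein E, which macrophages and microglia also make, at 6852 to 15033 FPKM in macrophages and 1915 to 8365 FPKM in microglia (1.43, adjusted p = 0.123). Without Apoe the sums were 71.5 to 353 FPKM in macrophages and 108 to 122 FPKM in microglia, and over the 5 tested genes of the list the median fold change was -1.26, with 3 negative. Glul, glutamine synthetase, had 7.39, 18.6, 17.1 and 7.54 FPKM in macrophages, against 46.3, 44.4, 46.6 and 67.6 FPKM in microglia (-2.03, adjusted p = 0.0504). Of the same 5 genes, Vim, an intermediate filament of many cell types, rose to 227 ± 122 FPKM in macrophages, against 38.2 ± 10.8 FPKM in microglia (adjusted p = 0.0266), and Slc1a3, a glutamate transporter, fell to 0.420 ± 0.532 FPKM in macrophages, against 10.4 ± 6.23 FPKM in microglia (adjusted p = 0.0165). The Vim call was lost without macrophage 5, 6 or 8 or microglia 2 or 3 (adjusted p from 0.0575 to 0.124), and the Slc1a3 call without macrophage 5, 6 or 8 (0.0780 to 0.0985). Both calls were also lost without the 1 FPKM minimum (0.314 for Vim, 0.130 for Slc1a3) and with a term for Y-linked expression (0.742 for Slc1a3). Vim further lost its call with a pseudocount of 0.1 (0.0771) and without the intensity trend (0.0819). Red-cell genes were called in 0 of 3 cases, with 2 at an unadjusted p below 0.05 and sums of 2.63 to 26.5 FPKM in macrophages and 4.55 to 2438 FPKM in microglia, and Slc4a1, the red-cell anion exchanger, was at 0 in all libraries. Among them Hba-a1, an alpha globin, had 7.23 ± 9.84 FPKM in macrophages and 398 ± 674 FPKM in microglia (-3.88 ± 1.26, adjusted p = 0.122), and was called lower without microglia 4 (-5.69, adjusted p = 0.000611, the lowest of alternatives that reached 1). Of 3 endothelial genes tested, Ecscr fell to 0.546 ± 0.650 FPKM in macrophages, against 92.8 ± 55.7 FPKM in microglia (adjusted p = 2.7e-06), while Cldn5 was at 0 throughout. The summed endothelial level was 4.59 to 11.1 FPKM in macrophages and 59.0 to 177 FPKM in microglia. Without Ecscr it was 4.59 to 9.81 FPKM in macrophages and 2.03 to 3.82 FPKM in microglia, and the other tested genes, Pecam1 (0.35, adjusted p = 0.815) and Kdr (0.72, adjusted p = 0.553), had positive fold changes. Neutrophil genes went the other way, with S100a8, S100a9 and Retnlg higher in macrophages among 6 tested, and sums of 58.0 to 259 FPKM in macrophages and 27.4 to 51.8 FPKM in microglia, with Ngp at 0 in all libraries. The Retnlg call was lost without macrophage 6 (adjusted p = 0.0565) and with quantile normalization (0.0673). It was also lost without the 1 FPKM minimum (0.359) and with the Y-linked term (0.277). Lymphocyte genes gave 0 calls among 2 tested, also at an unadjusted p below 0.05, with sums of 7.97 to 19.3 FPKM in macrophages and 0.185 to 38.9 FPKM in microglia, and Cd79b of the B-cell receptor had 7.09 ± 4.76 FPKM in macrophages and 14.1 ± 14.9 FPKM in microglia. The part of these cell types in the Ldhb difference was not tested.

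The sequences upstream of the Ldha and Ldhb starts are shown because Ldhb differed between the populations and Ldha did not pass the test. Both runs are the 250 bases before a start in RefSeq, read 5′ to 3′ on the gene's strand and placed by an exact match in the mm9 genome, at chr7:54100924-54101173 (plus strand) for Ldha and at chr6:142456478-142456727 (minus strand) for Ldhb. Capitals mark ACGTG or its reverse complement CACGT, one form of the core letters of the hypoxia response element, which overlap in the E-box CACGTG.
Ldha: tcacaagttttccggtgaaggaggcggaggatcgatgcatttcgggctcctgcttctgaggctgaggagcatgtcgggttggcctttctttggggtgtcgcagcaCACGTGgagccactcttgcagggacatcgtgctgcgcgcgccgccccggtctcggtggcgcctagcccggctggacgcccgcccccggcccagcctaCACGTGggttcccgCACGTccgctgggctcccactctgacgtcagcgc
Ldhb: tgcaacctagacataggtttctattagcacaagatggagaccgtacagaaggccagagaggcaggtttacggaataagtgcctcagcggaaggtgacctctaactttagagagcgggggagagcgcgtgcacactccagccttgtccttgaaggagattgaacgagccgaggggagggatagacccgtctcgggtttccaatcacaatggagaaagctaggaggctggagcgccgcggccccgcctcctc
The Ldha run holds these letters at 3 separate places and the Ldhb run at 0. RefSeq gives 2 starts for Ldha, and the 250 bases before the other one hold them at 0 places. Another form of the core, GCGTG or its reverse complement CACGC, is at 1 position of the Ldhb run, at 0 of the Ldha run shown, and in 28.2% of all promoters. In the RefSeq promoter table (GRCm38.p6), 5 of the 10 enzymes had the ACGTG letters on either strand within 250 bases before at least 1 start, namely Hk2, Aldoa, Pgk1, Pgam1 and Ldha, as had 18.5% of 27025 symbols and 16.6% of 32851 promoters. These matches describe the letters and not binding.

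**Figure D4:**
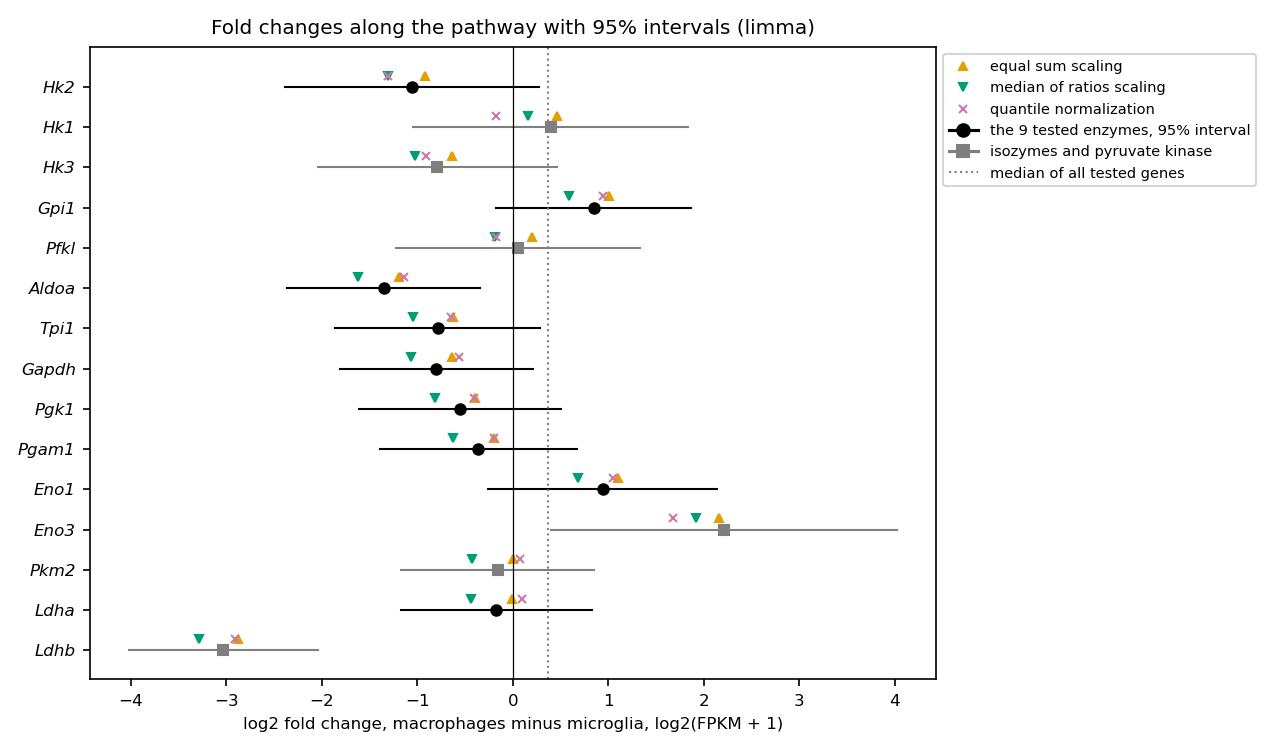
Log2 fold change, macrophages minus microglia, on log2(FPKM + 1) (horizontal axis) with its 95% interval for the 9 tested enzymes (circles) and for pyruvate kinase and the isozymes shown (squares), ordered along the pathway, with 3 other scalings as small symbols and the median of all tested genes, 0.37, as a dotted line. Of the genes shown Ldhb, at -3.03, was the one called, and the intervals of Aldoa and Eno3 leave out 0 before adjustment.

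At the other steps, the share of the listed enzyme among its isozymes overlapped between populations. Aldoa took 99.4% ± 0.387 of aldolase in macrophages and 99.9% ± 0.159 in microglia, and Pgam1 99.7% ± 0.560 of phosphoglycerate mutase in macrophages and 99.4% ± 1.14 in microglia. Eno1 took 93.0% ± 5.70 of the named enolases in macrophages and 92.6% ± 9.63 in microglia. In both populations 1 isozyme thus held nearly all FPKM of aldolase and phosphoglycerate mutase. Hexokinase was shared, Hk2 taking 28.2% ± 10.5 in macrophages and 36.0% ± 19.0 in microglia. The myeloid isozyme Hk3 had 15.9, 10.05, 17.8 and 8.82 FPKM in macrophages, against 26.8, 43.6, 8.54 and 25.2 FPKM in microglia (-0.79 ± 0.61, adjusted p = 0.573), and the widely expressed Hk1 had 3.61 ± 2.55 FPKM in macrophages and 2.40 ± 2.26 FPKM in microglia (0.40 ± 0.70, adjusted p = 0.833). Summed hexokinase was 19.1 to 29.3 FPKM in macrophages and 32.0 to 62.6 FPKM in microglia without overlap, but the populations overlapped after median-of-ratios scaling. Pfkp took 23.1% ± 25.7 of phosphofructokinase in macrophages and 2.70% ± 2.73 in microglia, the first mean resting on macrophages 5 and 8.

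Read together, the 10 enzymes made up 0.483%, 0.512%, 0.368% and 0.341% of the FPKM sum in macrophages, against 0.627%, 0.843%, 0.454% and 0.580% in microglia. Without Aldoa, the shares were 0.352%, 0.348%, 0.253% and 0.250% in macrophages, against 0.370%, 0.343%, 0.274% and 0.310% in microglia. The populations overlapped in both, more so without Aldoa. Within macrophages the enzymes followed the library: macrophage 6 was highest for 9 of the 10, and macrophage 7 lowest for 7 and macrophage 8 for 3. Macrophage 6 also had the largest FPKM sum, 512101, and macrophage 7 the smallest, 207154. After median-of-ratios scaling macrophage 6 was highest for 3 enzymes and macrophage 8 lowest for 9, so the order of macrophages 6 and 7 depended on scaling. In microglia the deposited values were highest in library 2 for 4 enzymes, in library 3 for 4 and in library 1 or 4 for the rest, while after median-of-ratios scaling microglia 2 was highest for 7 enzymes and microglia 4 lowest for 5. Within populations the enzymes' log2 levels had a median SD of 0.662, from 0.43 for Gpi1 to 1.01 for Eno1, beside 0.896 over the 5456 genes averaging 5 FPKM or more. Most of the enzymes are far more abundant than 5 FPKM, and these SDs were not matched for level.

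**Figure D5:**
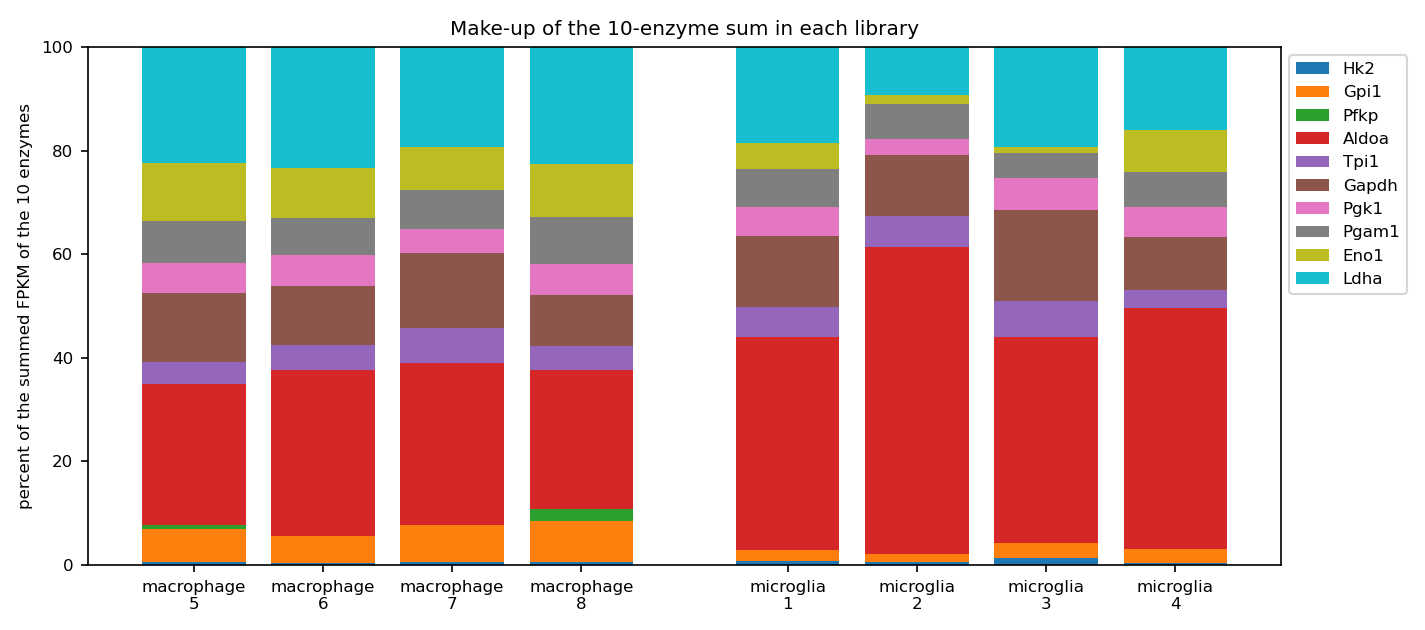
Percent of the summed FPKM of the 10 enzymes (vertical axis) taken by each enzyme in each macrophage and microglial library. Aldoa takes 26.8% to 32.0% in macrophages and 39.7% to 59.3% in microglia, and Gpi1 5.26% to 7.99% in macrophages and 1.42% to 2.90% in microglia.

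Within that sum, which removes differences in scale between libraries, some enzymes took different shares. Aldoa took 29.4% ± 2.69 of the 10-enzyme sum in macrophages and 46.6% ± 8.94 in microglia, and Gpi1 6.67% ± 1.16 in macrophages and 2.32% ± 0.692 in microglia. Ldha took 21.9% ± 1.79 in macrophages and 15.8% ± 4.59 in microglia, and Eno1 9.82% ± 1.20 in macrophages and 4.05% ± 3.21 in microglia. For these 4 of the 10 enzymes no macrophage library overlapped a microglial one, where the same ratio did so for 19.2% of all tested genes. Eno1 was separated by little, at 8.22% in macrophage 7 and 8.19% in microglia 4, and Ldha likewise, at 19.3% in macrophage 7 and 19.2% in microglia 3. With the Gm5506 rows counted as enolase, Gpi1, Aldoa and Eno1 did not overlap and Ldha did. A large share of Aldoa lowers the shares of the other enzymes by construction. Over the sum without Aldoa, Ldha and Eno1 overlapped between populations and Gpi1 did not. That sum was 523 FPKM in macrophage 7 and 919 FPKM in microglia 4. Ldha had 147 and 275 FPKM there, and Eno1 62.6 and 141 FPKM. Gpi1 took its smallest part in macrophages in macrophage 6, at 138 of 1782 FPKM. Its largest part in microglia was 48.4 of 919 FPKM, in microglia 4. Tpi1, Gapdh, Pgk1 and Pgam1 kept overlapping shares, Gapdh with 12.3% ± 2.05 in macrophages and 13.3% ± 3.15 in microglia.

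Both the enzymes' median and that of all genes depended on scaling. Median-of-ratios scaling shifted the median of all tested genes to 0.17 and that of the 9 enzymes to -0.82, and quantile normalization shifted them to -0.03 and -0.41. The enzymes' median stayed below that of all genes in both. After median-of-ratios scaling Gpi1, Aldoa, Gapdh and Pgk1 did not overlap between populations, 4 of the 9 tested enzymes, where 10.3% of all tested genes did not. Gapdh then had 175, 161, 174 and 73.4 scaled FPKM in macrophages, against 269.7, 457, 321 and 177 scaled FPKM in microglia, and Pgk1 74.6, 85.5, 55.6 and 43.8 in macrophages, against 114, 122, 112 and 100.3 in microglia. For Gapdh the separation was narrow, lying between macrophage 5 and microglia 4.

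The genes around glycolysis were called about as often as other genes, 2 of 78 tested over 7 lists (2.56%), where 2.34% of all tested genes were. At an unadjusted p below 0.05 there were 11 of the 78 (14.1%), where 15% of all tested genes passed. Of 11 tested transporters of glucose and lactate, 1 was called higher and 0 lower, with a list median of -0.56. Emb, embigin, an accessory chain of lactate transporters, had 17.2, 25.7, 1.45 and 20.4 FPKM in macrophages, against 0.227 FPKM in microglia 4 and 0 in the other microglia (3.58 ± 0.74, adjusted p = 0.00605). With a term for Y-linked expression Emb was at 2.81 (adjusted p = 0.650, the highest of its alternatives, which began at 0.000794). Of 14 regulators of glycolysis 0 were called in either direction, with a median of -0.02, and 1 passed an unadjusted p below 0.05. Hif1a, the oxygen-regulated subunit of HIF-1 that drives many glycolytic genes, had 10.6, 14.4, 2.90 and 24.6 FPKM in macrophages, against 44.4, 35.3, 63.1 and 23.6 FPKM in microglia (-1.80 ± 0.62, adjusted p = 0.156). Macrophages 5 to 7 lay below all microglia and macrophage 8 just above the lowest. Hif1a passed with median-of-ratios scaling (-2.07, adjusted p = 0.0403), its adjusted p over the alternatives running from there to 1. Of 11 other HIF-1 targets 0 were called and 0 passed an unadjusted p below 0.05, with a median of 0.04. Fam162a, the most abundant of them, had 27.7 ± 20.6 FPKM in macrophages and 26.5 ± 14.4 FPKM in microglia.

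Downstream of pyruvate, 0 of 11 genes of mitochondrial pyruvate entry were called and 2 had an unadjusted p below 0.05, with a median of 0.40. Brp44l, a subunit of the mitochondrial pyruvate carrier, had 65.7 ± 45.7 FPKM in macrophages and 137 ± 47.4 FPKM in microglia (-1.25 ± 0.54, adjusted p = 0.274), and passed with upper-quartile scaling (-1.36, adjusted p = 0.0362, the lowest of alternatives that reached 1). Of 22 genes of the tricarboxylic acid cycle 1 was called higher and 0 lower, with a median of 0.30. Idh2, the mitochondrial NADP-dependent isocitrate dehydrogenase, had 62.1, 68.6, 14.2 and 38.7 FPKM in macrophages, against 10.3, 2.64, 1.06 and 11.9 FPKM in microglia (2.81 ± 0.69, adjusted p = 0.0266), every macrophage library lying above every microglial one. Its adjusted p ran from 0.0149 to 1 over the alternatives, and with the Y-linked term the fold change was 1.77. The Idh2 call was also lost without macrophage 5 (adjusted p = 0.118), 6 (0.109) or 8 (0.0880) and without microglia 3 (0.0876). In the pentose phosphate pathway, which branches off at glucose-6-phosphate to make NADPH and ribose, 0 of 7 genes were called, 3 passed an unadjusted p below 0.05, and 6 had positive fold changes, with a median of 1.28. Taldo1, the pathway's transaldolase, had 219, 326, 63.9 and 122 FPKM in macrophages, against 43.9, 87.2, 18.5 and 94.7 FPKM in microglia (1.57 ± 0.59, adjusted p = 0.200), overlapping through macrophage 7 alone. Taldo1 passed with quantile normalization (1.69, adjusted p = 0.0498, the lowest of alternatives that reached 1). Of 2 tested genes of gluconeogenesis 0 were called, also at an unadjusted p below 0.05. The more abundant, G6pc3, a glucose-6-phosphatase subunit, had 15.8 ± 12.5 FPKM in macrophages and 13.9 ± 10.5 FPKM in microglia.

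The genes most like the enzymes over the 8 libraries were Arpc3, Ppib, Psmb1, Cfl1 and Psmd8. Likeness was the root-mean-square difference between a gene's log2(FPKM + 1) profile, centred on its own mean, and the mean centred profile of the 9 tested enzymes, and it was 0.138, 0.140, 0.143, 0.145 and 0.148 for these genes, where the median of 5447 genes was 0.863. Psmb1, a proteasome subunit, had 115, 215, 64.9 and 64.3 FPKM in macrophages, against 125, 199, 127 and 108 FPKM in microglia. Arpc3, of the actin-branching Arp2/3 complex, had 138, 194, 68.4 and 85.8 FPKM in macrophages, against 141, 151, 156 and 119 FPKM in microglia. Like the enzymes, both were highest in macrophage 6 and low in macrophages 7 and 8, a likeness for which they were chosen. Macrophage 6 also had the largest FPKM sum, 512101, and macrophage 7 the smallest, 207154. Among the enzymes themselves Pgk1 was nearest to the mean profile, at 0.23, followed by Ldha at 0.23 and Pgam1 at 0.24, and Eno1 was farthest, at 0.98.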

How the data were processed

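The series holds 8 mRNA-seq libraries of mouse retinal macrophages and microglia, grouped by their labels, on day 7 after injury. The submitters' processing notes name Cufflinks 2.1.1, bcl2fastq 1.8.4 and the mm9 build, and no aligner or annotation is named in the labels. The deposited tables hold FPKM as estimated by the authors (per the file headers), with an interval for each. FPKM correct for depth and transcript length, not for composition. Estimates of Gapdh, Pgk1, Pgam1 and Ldhb lay outside their own interval in 8 of 8 libraries and those of Gpi1 in 7, always above it by a near-constant factor (1.17 to 1.18 times the interval's middle for Gapdh), so intervals were not used. FPKM carry no counts, and depth was estimated only roughly.

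Rows sharing a symbol were summed (23021 rows, 22558 symbols) and 9 symbols with a failed estimate were left out. A gene entered the test if 4 or more libraries reached 1 FPKM (9352 genes). R 4.3.3 and limma 3.58.1 fitted log2(FPKM + 1), a scale that understates folds of low genes, with an intensity trend and no covariate. Tests were two-sided, with Benjamini-Hochberg adjustment, and calls have an adjusted p below 0.05. The fit was tested on simulated data. Single values were tested by exact permutation over libraries. Coding sequences were compared with blastn 2.17.0+ in the mm9 annotation, file loci were shifted to count from 1, and tables were made with scipy 1.17.1, numpy 2.4.6 and pandas 2.3.3 under Python 3.11.15. No pair of libraries held identical values.

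The 10 enzymes and the gene lists were chosen with earlier results of these data known. Text names the enzymes, isozymes averaging 1 FPKM or more in either population, in each other list up to 3 called genes of highest mean FPKM or else the most abundant tested gene, and the 5 genes of most similar profile. Some further genes, among them Apoe, Glul, Pecam1, Kdr, Actb and Actg1, were named outside that rule. Alternatives covered the pseudocount, the filter, 4 scalings, the trend, repeated symbols, each library left out, microglia 2 and 3 left out, and a term for Y-linked expression. Sums of Eno1 and Aldoa with their copies, and Ldha shares against microglia 4 alone, were added after the data were seen.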

Additional observations from a re-analysis of the deposited data

Results flagged for a closer look

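Within each population of 4 libraries, 114 sets of values were searched for a highest or lowest library far from the other 3 (Dixon's test at its 95% critical value), and 10 were found. Chance gives about 1 in 20 sets where values are not tied. Where the other 3 values are equal, an odd value is flagged whatever its size, as for Eno3, Emb and the Pgam1 shares below. Among the enzymes, Aldoa was at 1742 FPKM in microglia 2, where the other microglia lay between 708 and 799 FPKM, and the sum of the 10 enzymes reached 2938 FPKM in the same library, where the others lay between 1718 and 1878 FPKM. Pgam1 took 98.9% of phosphoglycerate mutase in macrophage 7 and 97.7% in microglia 1, with all other libraries at 100%. Among isozymes, Eno2 was at 3.64 FPKM in macrophage 6, where the other macrophages were at or below 0.0645 FPKM, and Eno3 at 5.97 FPKM in microglia 1, with the other microglia listed at 0. Outside the pathway enzymes, Emb was at 0.227 FPKM in microglia 4 with the other microglia at 0, Cd74 at 139.6 FPKM in microglia 4 with the others at or below 47.4 FPKM, Hba-a1 at 1407 FPKM in microglia 3 with the others at or below 108 FPKM, and the Y-linked gene Eif2s3y at 1.96 FPKM in macrophage 7 with the other macrophages at or below 0.143 FPKM. No explanation of these values was tested.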

How the results depend on the processing

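No paired analysis was possible because the populations share no replicate number. Of the 10 enzymes, none was called higher in any alternative, and Aldoa was called lower, as the 1 enzyme, with equal sums, upper-quartile scaling, quantile normalization and without macrophage 6 (0 to 1 over single libraries left out, Aldoa at -1.75 to -1.05). Aldoa stood at -1.19, -1.46 and -1.14 in the first 3 of these. Gpi1, at 0.85, had an unadjusted exact permutation p of 0.0286, which each of the 7.63% of genes without overlap reaches. Ldha turned to 0.10 with quantile normalization and ranged from -0.56 to 0.12 over single libraries left out, and Eno1 turned to -0.021 with the Y-linked term. Ldhb kept its sign and, outside the Y-linked term, its call.

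Genes called higher (154) numbered 87 with a pseudocount of 0.1, 30 without the filter, 243 with equal sums, 17 with the Y-linked term and 78 to 198 with a library left out. Genes called lower (65) numbered 20 without the filter, 110 with upper-quartile and with median-of-ratios scaling, 149 with quantile normalization, 8 with the Y-linked term and 35 to 81 with a library left out.

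Differences in isozyme share reversed for Hk2 without microglia 2 and 3 (2.04 points; -14.04 to 0.931 with 1 library left out), for Eno1 without microglia 2 and 3 (-2.75) and with both Gm5506 rows (-0.647; -4.10 to 2.90 with 1 left out), and for Pgam1 (-0.280 to 0.571 with 1 left out). Uncalled log2 fold changes reversed for Aldoc (-0.18) and Hk1 (-0.18) with quantile normalization, Cd79b with a pseudocount of 0.1 (0.48) and Hba-a1 with the Y-linked term (0.49). Fam162a reversed with upper-quartile (-0.072), median-of-ratios (-0.21) and quantile (-0.16) scaling, without microglia 2 and 3 (-0.36) and with the Y-linked term (-0.18), and Pfkl likewise (-0.049, -0.19, -0.18, -0.62 and -0.86 in the same order). Gnb1 reversed with upper-quartile (-0.091) and median-of-ratios (-0.25) scaling, G6pc3 without microglia 2 and 3 (-0.19), and Pkm2 with equal sums (0.00282) and quantile normalization (0.072). With 1 library left out, ranges were -1.22 to 0.50 for Cd79b, -0.51 to 0.33 for Fam162a, -0.43 to 1.15 for G6pc3, -0.34 to 0.27 for Gnb1, -0.39 to 0.47 for Pfkl and -0.44 to 0.11 for Pkm2. The cause was not tested.

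Depth is not given with FPKM, 4 libraries a population limit the precision, and the populations differ in sex-linked expression in all libraries but microglia 4.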

Other observations

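Gapdh and Pgk1 are often used as reference genes, which are meant to keep a steady level. Over the 8 libraries the SD of their log2(FPKM + 1) levels was 0.74 for Gapdh and 0.68 for Pgk1, at ranks 13 and 9, counted from the steadiest, among 21 common reference genes. Actb, a cytoskeletal actin, was steadiest, at 0.49, and Actg1, another actin, was at 0.50. After median-of-ratios scaling Gapdh stood at rank 17 with an SD of 0.79 and Pgk1 at rank 11. Of the 19 tested reference genes other than these enzymes, 0 were called by limma and 2 passed an unadjusted p below 0.05. B2m, the most abundant of them, had 1183, 2594, 1623 and 904 FPKM in macrophages, against 2862, 3399.5, 4647 and 1420.0 FPKM in microglia (-0.96 ± 0.47, adjusted p = 0.340).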
